A study of Mus musculus with 4 samples.

Results

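The cells described here are Sst-expressing interneuron precursors of the medial ganglionic eminence (MGE), the part of the embryonic ventral telencephalon where many cortical interneurons are born. They were chosen cell by cell from 4 single-cell RNA sequencing libraries (10x Genomics). A barcode was taken as an Sst cell when it held at least 3000 unique molecular identifiers (UMIs, which count captured RNA molecules) with at most 10% from mitochondrial genes. It also needed at least 3 UMIs of Sst, at least 1 of Lhx6, and at least 2 of the neuron genes Stmn2, Gap43 and Mapt combined. By this rule 320 of 19032 cells were Sst cells. The libraries came from the MGE of e14.5 mouse embryos of mixed C57/BL6 and ICR stock, from parents heterozygous for St18. In the 2 libraries labelled St18 (−/−), called null, the gene had been inactivated in the whole animal by germline recombination of a conditional allele, and the 2 libraries labelled WT came from wild-type embryos. Tissue was pooled by genotype before dissociation, so a library is a pool of embryos. The study calls the libraries of a genotype biological replicates. How many embryos or litters each pool held is not given in the sources used here. The p-values of null against WT measure the spread between these pools. Where cell classes of the same library are compared, p-values measure the spread of that difference among the pools. Values of the 4 libraries are given below in the order null replicate 1, null replicate 2, WT replicate 1 and WT replicate 2.

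Somatostatin, the product of Sst, is a peptide released by a large class of cortical GABAergic interneurons that target the dendrites of other neurons. These cells arise in the MGE under the control of Nkx2-1, start Lhx6 as they leave the cell cycle, and migrate to the cortex, where Sox6 and Satb1 are known to act in their differentiation. The MGE also makes parvalbumin interneurons, cholinergic neurons and projection neurons of the globus pallidus, all of which share part of this programme. St18 is a zinc finger transcription factor of the same zone.

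GENCODE M21 places Sst (ENSMUSG00000004366) on the minus strand of chromosome 16 in GRCm38, between bases 23889573 and 23890958. The window below is shown because it holds the cAMP response element through which Sst transcription is classically regulated. It is 30 bases of reference sequence from RefSeq (GRCm38.p6) at chr16:23890874-23890903, minus strand, read 5′ to 3′, with the element TGACGTCA in capitals.

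Sst cAMP response element: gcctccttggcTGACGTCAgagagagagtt

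The element started 48 bases before the RefSeq start of the gene at position 23890844, and reads the same on both strands. GENCODE M21 puts the 5′ end of the gene farther out, at 23890958, so the window is upstream of the RefSeq start only and lies within the GENCODE gene. It occurred in the 250 bases before the start of 508 of 32851 genes, which is 1.55%. These are letters in the reference, and no factor binding was measured.

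The 4 libraries held 118, 59, 67 and 76 Sst cells. The same gate without the Sst limit held 3422, 2288, 2202 and 2202 cells, called Lhx6 neurons. Of these, 3140, 2142, 2055 and 2040 had no Sst UMI and are called Sst-zero neurons. The remaining 164, 87, 80 and 86 Lhx6 neurons had 1 or 2 Sst UMIs and are in neither class.

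Lhx6 and Sst chose the cells and so do not check the label, which was set against markers of other classes. The pallial excitatory list (9 genes) summed to between 0 and 2.80 CPM (UMIs per 1000000 UMIs) per library, and Neurod1, Neurod2, Neurod6, Slc17a7, Eomes and Bhlhe22 had no UMI in any library. The microglia list summed to between 0 and 4.51 CPM, the oligodendrocyte precursor list to between 6.76 and 20.4 CPM, and Sox10 was at 0 throughout. Markers of the caudal and lateral ganglionic eminences (CGE and LGE) were present. The CGE list summed to 198 to 357 CPM against 215 to 322 CPM in Sst-zero neurons, with Vip at 0. The LGE list summed to 162 to 478 CPM against 301 to 587 CPM. In barcodes with under 100 UMIs, which hold mostly free RNA, the CGE list had 143 to 178 CPM and the LGE list 395 to 524 CPM. Endothelial and mural markers summed to between 2.80 and 31.4 CPM. Erythroid markers ranged from 66.3 to 15039 CPM, the highest in WT replicate 2. Progenitor markers were not absent, at 1330 to 2198 CPM over 13 genes, against 3250 to 4313 CPM in Sst-zero neurons.

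Sst UMIs in cells that should lack Sst gave a measure of the background of free RNA. Among progenitors without Lhx6 or neuron genes, 0 of 295, 156, 234 and 146 cells reached 3 Sst UMIs. A count of 0 allows a share of up to 1.02%, 1.92%, 1.28% and 2.05% of these progenitors. Their median depth was 9242, 11429.5, 9138.5 and 8289 UMIs, above that of the Sst cells at 7225, 10123, 6236 and 6633. At a threshold of 1 UMI the progenitor shares were 3.73%, 2.56%, 3.42% and 4.79%, against 8.24%, 6.38%, 6.68% and 7.36% of Lhx6 neurons. These progenitors were chosen to have no Lhx6 or neuron gene UMI, which also leaves out cells that caught free RNA of those genes. Their Sst may therefore understate the background. Other measures of the background were higher. Of 39 microglia in null replicate 1, 1 held at least 3 Sst UMIs (2.56%), and none did in the other libraries. Barcodes with under 100 UMIs, which hold mostly free RNA, had Sst at 78.9, 73.9, 85.4 and 118 CPM, against 2.11 to 6.25 CPM in progenitors.

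Several facts about the libraries touch the results. The libraries held 92984713, 89094919, 72640295 and 70991150 UMIs in all. St18, a check of the labels, went against them in null replicate 2: its level in Sst-zero neurons was 24.2, 69.3, 46.1 and 60.1 CPM. In null replicate 2 the mismatch was in the female Sst-zero neurons, at 86.2 CPM against 27.9 CPM in the male ones. Null replicate 1 had 20.1 CPM in female and 26.9 CPM in male Sst-zero neurons, and the male ones of the WT libraries had 48.6 and 61.7 CPM. In the Sst cells of null replicate 2, St18 stood at 21.9 CPM in the 46 female cells (12 UMIs) and 40.4 CPM in the 9 male cells (4 UMIs). The paper also found St18 RNA remaining in null samples, at lower levels in neurons, and no St18 protein by antibody staining in null embryos. The recombined allele removes 2 exons, and the counts do not tell UMIs of those exons from the rest of the transcript, so St18 RNA checks the deletion only in part. Libraries are therefore named by their label throughout. By Xist and Y-linked UMIs, 43 Sst cells of null replicate 1 were female and 43 male, and null replicate 2 held 46 female and 9 male. Both WT libraries held only male cells among those that could be called. Sex and genotype can therefore be told apart only within male cells.

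In WT replicate 2, 10 of the 76 Sst cells carried 706 to 1259 UMIs of adult globin genes, where no other Sst cell of that library had more than 2. All 10 also held cycling transcripts (at least 3 UMIs of Mki67, Top2a, Cenpf and Ube2c together). Pairs of these 10 differed by a chi-square per degree of freedom of 0.956 to 2.12. Pairs of other deep Sst cells of the library ranged from 1.54 to 6.30 with a median of 2.65. The ranges overlapped, but all pairs of the 10 lay below that median. The lowest other deep pairs of the 4 libraries stood at 1.26, 1.44, 1.65 and 1.54. Whether the 10 are separate cells was not tested, and they count as 10 in the main sums. No barcode of an Sst cell occurred as an Sst cell in another library. Values without these barcodes are given beside the share and the comparison of null with WT. Cycling transcripts were found in 21.2%, 39.0%, 8.96% and 25% of Sst cells, or 13.6% in WT replicate 2 without the globin barcodes. In Sst-zero neurons the shares were 50.3%, 52.8%, 37.4% and 38.3%.

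**Figure D1:**
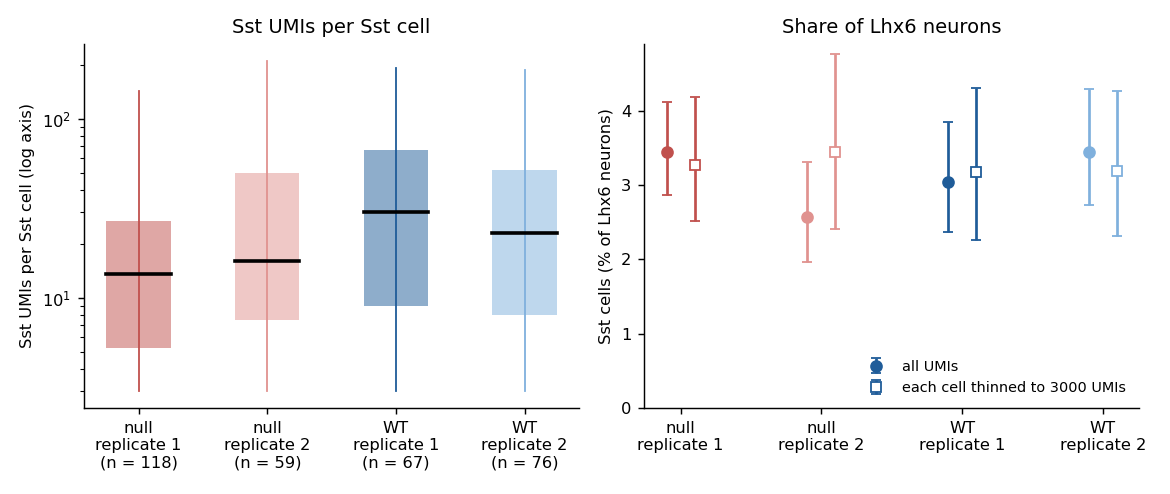
Left, Sst UMIs per Sst cell (log axis) in each library, with the median as a bar, the quartiles as a box and the range as a line. Right, Sst cells as a percentage of Lhx6 neurons with exact 95% binomial intervals, at full depth (filled) and with each cell thinned to 3000 UMIs (open). The shares of null replicates 1 and 2 (3.45% and 2.58%) enclose that of WT replicate 1 (3.04%), and the 2 libraries labelled WT have the higher median Sst UMIs per cell (30 and 23 against 13.5 and 16).

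The first question was whether loss of St18 changed how many Lhx6 neurons had become Sst cells. Sst cells made up 3.45% of Lhx6 neurons in null replicate 1 (exact 95% interval 2.86 to 4.12), 2.58% in null replicate 2 (1.97 to 3.31), 3.04% in WT replicate 1 (2.37 to 3.85) and 3.45% in WT replicate 2 (2.73 to 4.30). The intervals cover counting error only. The null mean was 3.01% ± 0.615 and the WT mean 3.25% ± 0.289 (SD, n = 2 each), a difference of −0.234 percentage points with an exact permutation p of 0.667 (two-sided). With 2 libraries against 2 the smallest p possible was 0.333. The groups overlapped, and a difference was not detectable with these libraries. Adult globin of at least 50 UMIs was found in 15 Lhx6 neurons of WT replicate 2, the 10 Sst cells included. Null replicate 2 had 1 such neuron. Without all of these barcodes the share of WT replicate 2 was 3.02% and the difference −0.0162 points. Its sign turned to 0.201 points without null replicate 2, and to 0.181 points when each cell was thinned to 3000 UMIs, where the shares were 3.27%, 3.45%, 3.18% and 3.19%.

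Sst itself chose the cells, so its level is a description. The median Sst cell held 13.5, 16, 30 and 23 Sst UMIs, and the highest 143, 211, 192 and 186. After thinning to 3000 UMIs per cell, 61, 35, 39 and 43 cells still met the rule, and their medians were 10, 10, 18 and 15. Summed over the members, Sst stood at 2437, 3188, 6618 and 4347 CPM. Over all Lhx6 neurons, whatever their Sst count, it stood at 97.9, 91.5, 201 and 188 CPM, and the members held 93.3% to 96.9% of those Sst UMIs. The libraries labelled WT were the higher pair by median and by CPM, but the highest single cell was in null replicate 2. At the edge of the rule, 32 Sst cells had exactly 3 Sst UMIs and 58 Lhx6 neurons had 2.

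Sst cells were next compared with the Sst-zero neurons of the same library, to ask what they held in common beyond the genes of the rule. UMIs of each class were summed within a library, and the sums were compared by edgeR's quasi-likelihood test with library as a block. Of 12310 genes tested, 1218 were higher in Sst cells (9.89%) and 1131 lower (9.19%) at a Benjamini-Hochberg adjusted p of 0.05. Together these were 19.1% of all genes, and the median log2 difference over all genes tested was −0.03. A large background of this kind came with 2 measured imbalances. The neuron genes of the rule stood at 18.8, 16.4, 22.5 and 19.1 UMIs per 10000 in Sst cells against 8.35, 6.06, 8.47 and 11.1 in Sst-zero neurons, and fewer Sst cells were cycling. When Sst-zero neurons were matched to the Sst cells of their library on these neuron genes, an alternative chosen after the data were seen, 362 of 10254 genes (3.53%) were called, 198 higher (1.93%) and 164 lower (1.6%). Matched values are therefore given beside most genes and lists below. With cycling cells left out of both classes, also chosen after the data were seen, 6.04% of 11280 genes were higher and 5.16% lower (11.2% together).

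Among the 10 genes that rose most was Reln, which encodes the secreted glycoprotein reelin that guides neuron positioning. It stood at 51.4, 64.9, 56.4 and 53.4 CPM in Sst cells. In Sst-zero neurons it stood at 6.74, 7.36, 9.21 and 11.3 CPM, so the classes did not overlap. Its log2 difference was 2.74 (SE 0.19, edgeR adjusted p = 1.1e-10, n = 4 libraries) and 1.69 after matching. In adult cortex Reln is found in many Sst interneurons.

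Npy2r, a receptor for neuropeptide Y, had the largest rise among genes of at least 20 CPM. Its level was 18.7, 28.2, 24.8 and 21.97 CPM in Sst cells and 2.04, 2.62, 2.83 and 2.005 CPM in Sst-zero neurons. The log2 difference was 3.29 (SE 0.30, edgeR adjusted p = 9.1e-09), and 2.89 after matching. Prkcq, which encodes protein kinase C theta, was at 31.8, 63.5, 49.6 and 36.1 CPM against 4.82, 4.95, 4.39 and 4.08 CPM. The classes did not overlap, and the log2 difference was 3.25 (2.75 matched). Cntn5, a contactin of the axon surface, was at 23.4, 29.6, 76.7 and 58.1 CPM in Sst cells and at 3.66 to 5.78 CPM in Sst-zero neurons, a log2 difference of 3.20 (1.93 matched).

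The other 6 leading genes rose by 2.27 to 2.58 on the log2 scale. They were Kcnip1, a potassium channel interacting protein, at 2.58 (1.87 matched), and Cntn1, a second contactin, at 2.52 (1.35). Nkain3, which encodes a partner of the sodium pump, rose by 2.40 (1.66), and Cntnap3, a contactin-associated protein, by 2.38 (1.78). Masp1, a serine protease of the complement lectin pathway, rose by 2.37 (2.28) and Ajap1, a junction-associated protein, by 2.27 (1.38). All 10 leading genes were higher in Sst cells in each of the 4 libraries, which their choice required, and were still called after matching. Of all genes tested, 36.6% had one direction in all 4 libraries.

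**Figure D2:**
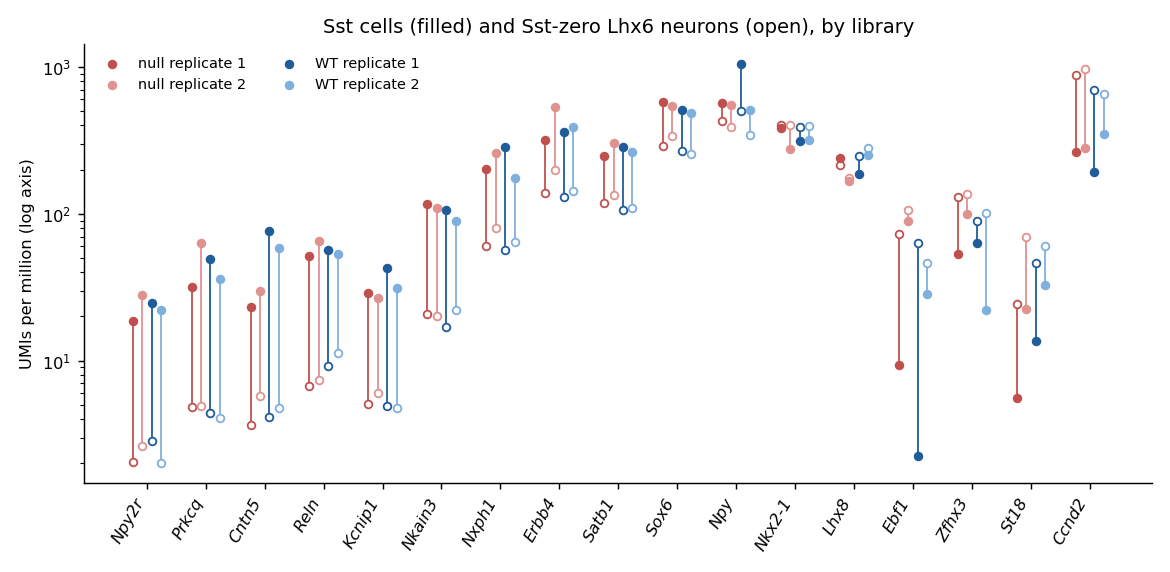
Level (CPM, log axis) of 17 genes in the Sst cells (filled) and Sst-zero neurons (open) of each library, joined by a line within a library. Reln lies between 51.4 and 64.9 CPM in Sst cells and between 6.74 and 11.3 CPM in Sst-zero neurons, while the levels of Nkx2-1 lie close together.

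Transcription factors of the MGE lineage went both ways. Of 24 on the list, all tested, 8 were higher and 6 lower in Sst cells, against 9.89% and 9.19% of all genes, and the median log2 difference was −0.11. After matching, 6 of 23 were higher and 2 lower. The factors known for Sst interneuron differentiation were among the higher. Satb1 stood at 247, 302, 284 and 262 CPM against 119, 134, 106 and 110 CPM, a log2 difference of 1.20 (SE 0.08, edgeR adjusted p = 1.3e-10) that was 1.17 after matching. Sox6 stood at 572, 538, 510 and 485 CPM against 291, 337, 269 and 257 CPM, a difference of 0.86 (SE 0.08, edgeR adjusted p = 6.6e-09) and 0.88 after matching. Both genes separated the classes fully and barely changed with matching.

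Maf, a bZIP factor that acts in MGE interneurons, was also higher, by 0.59 (0.63 matched). Maf changed sign to −0.15 (adjusted p = 0.63) when each cell was thinned to 3000 UMIs, which also left fewer Sst cells (61, 35, 39 and 43). The cause of this change was not tested. Myt1l, a neuron-wide zinc finger factor of the St18 family, rose by 1.01 and by 0.46 after matching. Cux2, Nr2f1 and Tcf4 rose by 0.58, 0.31 and 0.18. Matched values were 0.42, 0.30 and 0.47, of which only that of Tcf4 was called.

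St18 was lower in Sst cells than in Sst-zero neurons of the same library. Its level was 5.61, 22.6, 13.5 and 33.0 CPM in Sst cells against the 24.2, 69.3, 46.1 and 60.1 CPM given above. The log2 difference was −1.46 (SE 0.20, edgeR adjusted p = 4.1e-06) and −0.89 (adjusted p = 0.016) after matching. St18 was lower in Sst cells in each library, whatever the label, by −1.17 within WT and −1.81 within null. Zfhx3, a homeodomain factor, was lower with a log2 difference of −1.01, and −2.004 after matching. Dlx1, Dlx6 and Sp9, factors of the early GABAergic lineage, had log2 differences of −0.56, −0.34 and −0.35. Matched values were −0.10, −0.28 and 0.0025, with none of the 3 called.

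The MGE patterning factors differed little. Nkx2-1 stood at 384, 278, 311 and 320 CPM in Sst cells and at 405, 403, 389 and 397 CPM in Sst-zero neurons. Its log2 difference of −0.31 (SE 0.08, edgeR adjusted p = 0.0074) became 0.03 both after matching and after thinning, with no call in either. Nkx2-1 was called in 12 of 19 alternatives, and was not called without null replicate 2. Lhx8, a LIM factor of cholinergic and pallidal neurons, stood at 241, 168, 187 and 251 CPM against 216, 175, 249 and 279 CPM, and its difference of −0.10 did not pass the test (adjusted p = 0.51), nor did the matched value of −0.33 (adjusted p = 0.082). With cycling cells left out of both classes it was −0.42 (adjusted p = 6.1e-04).

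Peptide genes were next. Of 18 neuropeptide genes on the list, 6 were tested, of which Npy, Nxph1 and Pnoc were higher and Nts lower. Npy, which many adult Sst interneurons co-release, stood at 570, 549, 1046 and 509 CPM in Sst cells and at 430, 389, 501 and 343 CPM in Sst-zero neurons. Its log2 difference was 0.62 (SE 0.08, edgeR adjusted p = 4.0e-06) and 0.72 after matching. Npy was thus high in both classes, and the lowest Sst cell sum stood just above the highest Sst-zero sum. Nxph1, a secreted neurexin ligand typical of Sst and parvalbumin interneurons, stood at 202, 261, 284 and 176 CPM against 56.8 to 79.5 CPM, a difference of 1.79 (1.62 matched). Pnoc, the nociceptin precursor, rose by 1.32 but did not pass after matching (0.14, adjusted p = 0.92). Nts, the neurotensin precursor, had 2 UMIs in all Sst cells, and its level in Sst-zero neurons was 12.5 times higher (counting interval 3.44 to 103).

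Of 16 genes for peptide processing and dense core granules, 4 were higher (Pcsk1n, Cadps, Chgb and Scg5, by 0.31 to 1.13) and 0 lower. Pcsk1n, an inhibitor of the proprotein convertase PC1, stood at 192, 147, 207 and 234 CPM against 78.2, 61.5, 95.9 and 126 CPM. None of the 4 was called after matching, where Pcsk1n stood at 0.17. The 5 somatostatin receptor genes were too low to test. They summed to 11.2, 2.82, 0 and 1.57 CPM in Sst cells, and only Sstr1 and Sstr2 had any UMI there.

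Markers that divide adult Sst interneurons into subtypes were mostly not yet measurable. Of 27 listed, 12 were tested, with 4 higher (Reln, Npy, Calb1 and Grin3a) and 1 lower (Nts), and after matching 2 of 10 were higher and 1 lower. Calb1, the calcium buffer calbindin, stood at 63.6, 70.6, 87.9 and 132 CPM against 42.9, 52.5, 49.6 and 50.3 CPM. Its difference of 0.81 fell to 0.14 (adjusted p = 0.83) after matching. Nos1 and Chodl, which mark long-range Sst projection cells, each had UMIs in null replicate 2 alone, at 1.41 CPM. Cort, a peptide related to somatostatin, Chrna2, Crh, Hpse and Pdyn had no UMI in any Sst cell.

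Genes of GABA signalling and of migration were counted next. Of 8 tested genes for GABA synthesis, transport and receptors, 6 were higher and 0 lower, with a median log2 difference of 0.43. Gad2, which makes GABA, rose by 0.38 (0.016 matched) and Slc32a1, which loads it into vesicles, by 0.47 (0.35 matched). After matching only Gad1 was still called, at 0.37 (adjusted p = 0.048). Of 24 tested migration genes, 12 were higher and 6 lower, and 6 and 3 of 23 after matching. Over all genes, 9.89% were higher and 9.19% lower, and 1.93% and 1.6% after matching, which is the background for these and the other list counts here.

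Erbb4, the neuregulin receptor of migrating MGE interneurons, stood at 317, 532, 359 and 388 CPM against 139, 199, 130 and 144 CPM. Its log2 difference was 1.36 (SE 0.08, edgeR adjusted p = 1.4e-11), and 1.34 after matching. The chemokine receptors Cxcr4 and Ackr3, which hold migrating interneurons in their streams, rose by 1.28 (1.31 matched) and 0.49 (0.70 matched). Nrp2, a semaphorin receptor, rose by 1.71 (0.44 matched), and Epha5 by 0.90 (0.57 matched). Among those that fell were Rnd3, a small GTPase of newborn neurons, by 1.09 (0.87 matched), and Plxna2 by 0.47 (0.36 matched). Epha4 was also lower, with a log2 difference of −0.62, but did not pass after matching (−0.29, adjusted p = 0.082).

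Of 9 tested genes linked to the parvalbumin lineage, 5 were higher (Erbb4, Maf, Mef2c, Kcnc1 and Kcnc2) and 2 lower (Nek7 and Plcxd3), though Erbb4 and Maf are shared with Sst interneurons. After matching, 3 of 8 were higher and 1 lower. Mef2c, a factor of early parvalbumin precursors, stood at 87.9, 151, 113 and 34.5 CPM in Sst cells and at 45.1, 72.3, 52.4 and 46.2 CPM in Sst-zero neurons. It was higher in 3 of 4 libraries, by 0.81 in the fit, and not called after matching (0.35, adjusted p = 0.27). Pvalb itself had UMIs only in null replicate 2, at 1.41 CPM.

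Genes of pallidal and basal forebrain projection neurons differed more against the matched neurons. The Sst cells were the same in both comparisons, and only the Sst-zero neurons set against them changed. Of 12 tested, 0 were higher and 3 lower (Foxp2, Gbx2 and Nkx2-1), with a median of −0.39. After matching, 8 of 12 were lower and 0 higher, with a median of −1.34, against 1.6% of all genes lower. Gbx1, a homeobox gene of cholinergic and pallidal precursors, stood at 13.1, 11.3, 6.76 and 14.1 CPM in Sst cells and at 31.4, 33.1, 53.4 and 45.1 CPM in the matched Sst-zero neurons. Its log2 difference went from −0.47 (adjusted p = 0.24) to −1.69 (adjusted p = 5.2e-05). Isl1 went from −0.58 (adjusted p = 0.15) to −1.68 and Tshz2 from 0.03 to −1.02, both called after matching. Gbx2 had 3 UMIs in all Sst cells, and its level in unmatched Sst-zero neurons was 6.97 times higher (counting interval 2.37 to 33.9).

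Striatal and LGE genes followed the same course, with 4 of 7 tested lower before matching and 6 of 7 after. Ebf1, a factor of striatonigral neurons, stood at 9.35, 88.9, 2.25 and 28.3 CPM in Sst cells against 206, 296, 177 and 83.5 CPM in the matched neurons. Its difference was −1.24 and −2.62 after matching. Null replicate 2 held most of the Ebf1 and Isl1 of the Sst cells, with 88.9 and 50.8 CPM. CGE markers gave 0 higher and 1 lower of 8 tested, the lower gene being Prox1, at −0.88 and −0.15 (not called) after matching. Of 5 tested after matching, 2 were lower, Adarb2 at −0.77 and Cnr1 at −0.68, which had been at 0.48 and 0.48 before it without a call.

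**Figure D3:**
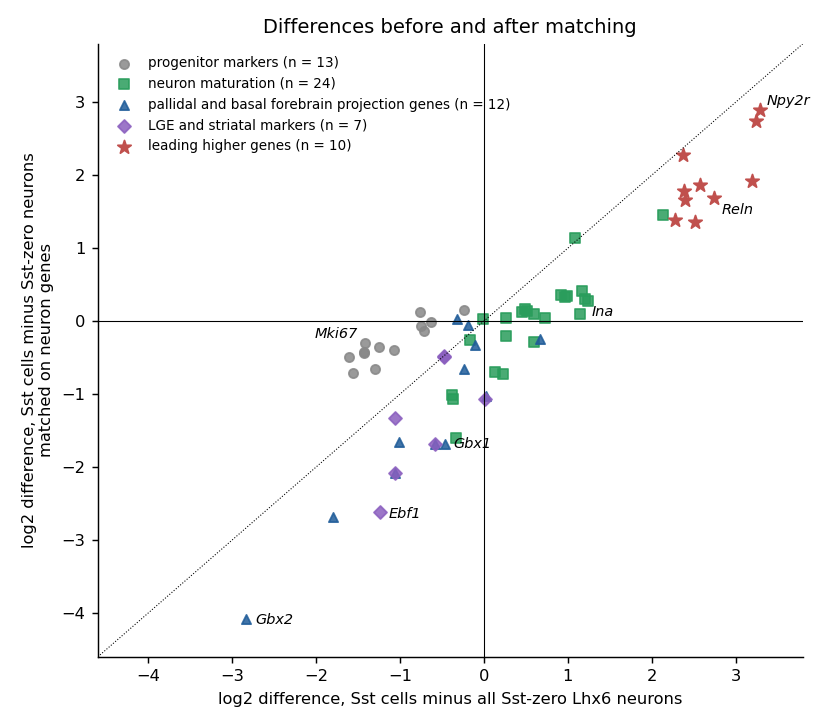
Log2 difference of Sst cells against all Sst-zero neurons (horizontal axis) and against Sst-zero neurons matched on neuron genes (vertical axis), 1 point per gene, for 4 gene lists and the 10 leading higher genes; the dotted line marks equal values. Ina goes from 1.20 to 0.30, Reln from 2.74 to 1.69, Gbx1 from −0.47 to −1.69 and Ebf1 from −1.24 to −2.62.

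General markers of neuron maturation rose and progenitor genes fell. Of 25 maturation genes tested, 16 were higher and 0 lower, with a median of 0.52, and after matching 5 were higher and 4 lower of 24, with a median of 0.10. The log2 difference of Ina, a neuronal intermediate filament, went from 1.20 to 0.30, while that of Gria1, an AMPA receptor subunit, went from 2.14 to 1.46. All 13 progenitor markers were lower, with a median of −1.25, and 2 of 13 (Vim and Ube2c) after matching, with a median of −0.36. Ccnd2, a D-type cyclin of dividing intermediate progenitors, fell by 1.57 and by 0.63 after matching. The 10 leading genes that fell were led by Hbb-y, an embryonic globin, at −3.99 (−3.43 matched), and Cep55, of cytokinesis, at −2.19 (−1.30 matched). Of the 10, Hbb-y, Cep55 and Kif2c were still called after matching. The matched difference of Hbb-y was largest in WT replicate 2, at 6.28 CPM in Sst cells against 378 CPM, where the other libraries had 6.76 to 8.47 CPM against 10.01 to 12.7 CPM. In 5 of 19 alternatives Hbb-y was not called, among them male cells only, at −0.58 (adjusted p = 0.59), and without the globin barcodes, at −0.69 (adjusted p = 0.18). Hbb-y moved with the libraries, at 363 and 167 CPM in the Sst-zero neurons of null and WT replicates 2 and 9.29 and 9.35 CPM in the others. Adult globins went the other way. Of 5 erythroid markers tested, Hba-a2, Hbb-bs and Hbb-bt were higher in Sst cells and Hbb-y lower. The only Sst cells with at least 50 adult globin UMIs were the 10 barcodes of WT replicate 2 described above. No other Sst cell of any library held more than 7. After matching Hba-a1, Hba-a2 and Hbb-bt were higher and Hbb-y lower. With cycling cells left out all 5 were lower.

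Sst cells also varied among themselves. They were split by their own Sst count into 3 to 5, 6 to 15 and at least 16 UMIs, and set beside Lhx6 neurons with 0 and with 1 or 2. These classes use the rule's gene, differ in size (10 to 51 Sst cells each) and are a description with no test. Satb1 was higher with more Sst in null replicate 1, from 119 and 143 CPM at 0 and at 1 or 2 Sst UMIs to 164, 242 and 297 CPM. In WT replicate 1 it went from 106 and 130 CPM to 154, 176 and 351 CPM. Reln was highest in the top class of all 4 libraries, at 91.2, 95.0, 81.6 and 81.8 CPM, against 25.9, 24.9, 20.7 and 12.5 CPM in cells with 6 to 15 Sst UMIs. Cntn5 stood at 36.9, 54.3, 117 and 70.1 CPM in the top class. Cntn5 was also high in the 12 cells with 3 to 5 Sst UMIs of WT replicate 2, at 96.2 CPM, and was at most 23.1 CPM in the other classes of Sst cells.

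Npy did not follow Sst in this way. In the null libraries it peaked at 862 and 837 CPM in cells with 6 to 15 Sst UMIs and stood at 380 and 407 CPM in the top class. In the WT libraries the top class held 1106 and 640 CPM, with 1116 and 525 CPM at 6 to 15 UMIs. St18 in the top class was 8.68, 21.7, 3.55 and 29.2 CPM, below the Sst-zero level of its library in each case. In neurons with 1 or 2 Sst UMIs, Reln stood at 14.49, 7.73, 5.50 and 3.25 CPM, above the Sst-zero level in null replicate 1 and, on 3 and 2 UMIs, below it in the WT libraries.

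**Figure D4:**
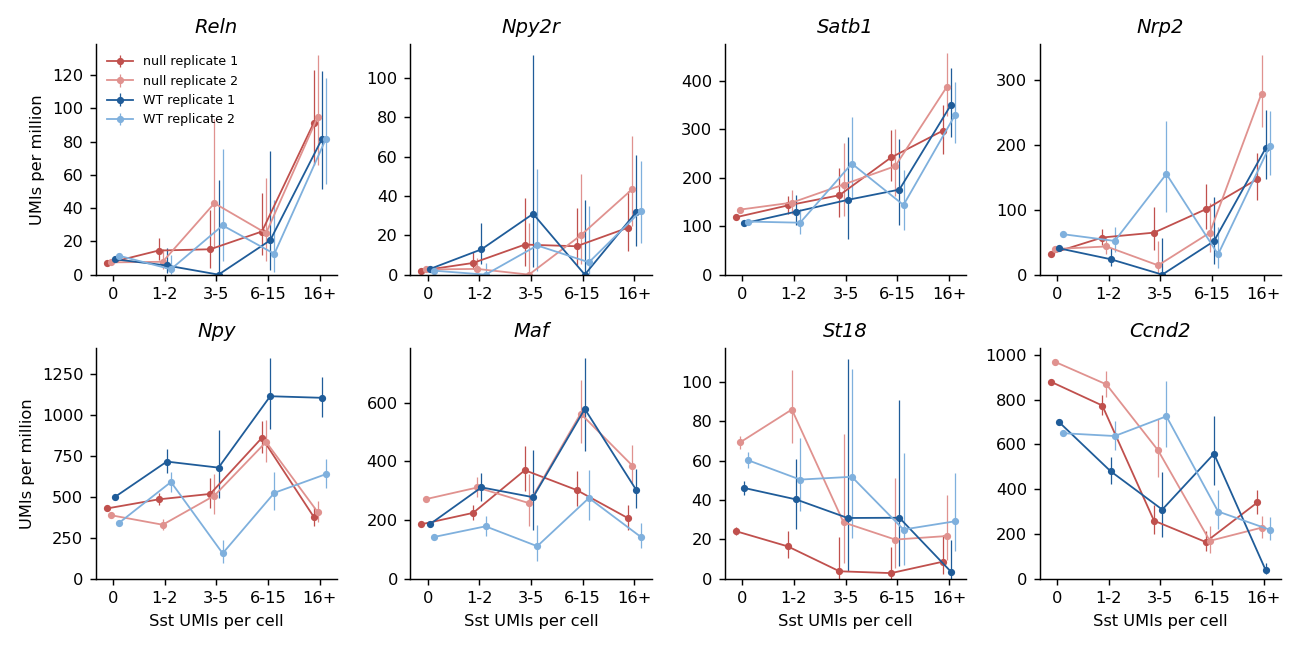
Level (CPM) of selected genes in Lhx6 neurons by their number of Sst UMIs (0, 1 to 2, 3 to 5, 6 to 15, 16 or more), 1 line per library, with exact 95% Poisson intervals for counting error. Reln reaches 81.6 to 95.0 CPM in the top class of every library, and Npy peaks at 6 to 15 UMIs in the 2 libraries labelled null (862 and 837 CPM).

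For Sox6 and Erbb4, shares of cells with a UMI gave the same contrast cell by cell. Sox6 was detected in 97.5%, 94.9%, 97.0% and 86.8% of Sst cells and in 72.9%, 78.4%, 66.3% and 64.1% of Sst-zero neurons. At 3000 UMIs per cell the shares were 81.4%, 72.9%, 80.6% and 71.1% against 51.0%, 55.0%, 48.9% and 45.8%, and progenitors had 10.5%, 12.2%, 8.55% and 6.85%. Erbb4 was detected in 83.1%, 89.8%, 71.6% and 85.5% of Sst cells, against 44.2%, 54.7%, 40.7% and 40.1% of Sst-zero neurons. Progenitors had Erbb4 in 8.47%, 17.9%, 8.12% and 4.79% of cells. Both genes were detected in more Sst cells than Sst-zero neurons in every library.

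Reln was a minority gene by this count, in 25.4%, 35.6%, 19.4% and 27.6% of Sst cells. Sst-zero neurons held it in 4.36% to 5.49% of cells and progenitors in 0.685% to 3.39%. Npy was detected in about as many Sst cells (54.2%, 52.5%, 56.7% and 51.3%) as Sst-zero neurons of the null libraries (54.7% and 54.2%), and in more than those of the WT libraries (44.5% and 39.4%). Sst cells with Npy often held Maf as well, in 54 of 64, 24 of 31, 28 of 38 and 23 of 39 cells. Maf was found in 29.6%, 50%, 34.5% and 29.7% of the Sst cells without Npy. Progenitors had Npy in 8.90% to 19.9% of cells and Maf in 2.74% to 6.41%. Depth differs from cell to cell, and its part in this joint detection was not tested.

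The last comparison set null against WT within Sst cells, to ask whether losing St18 changed what these cells express. Of 7603 genes tested, 7 were higher in null (0.0921%) and 10 lower (0.132%), together 0.224%, and 811 genes (10.7%) had an unadjusted p under 0.05. The median log2 difference over all genes was 0.00. With library totals in place of TMM scaling, 17 genes were higher and 7 lower. Some of the called genes follow the sex of the cells. Xist and its antisense partner Tsix were higher in null, at 588 and 1744 CPM for Xist with no UMI in either WT library, and Eif2s3y on the Y chromosome was lower, with a log2 difference of −1.55. It was not called without null replicate 2 (−1.07, adjusted p = 0.22), WT replicate 1 (−1.40, 0.072) or the globin barcodes (−1.51, 0.12). Against a floor of 3 UMIs over the WT group, Xist was at least 378-fold and Tsix at least 29.98-fold higher. Xist and Tsix overlap on opposite strands, so their UMIs may not be fully separated.

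The 3 adult globin genes called (Hba-a2, Hbb-bt and Hbb-bs) were lower in null, by 6.67 to 7.14 on the log2 scale, and Hbb-bs differed by −0.03 without the 10 globin barcodes of WT replicate 2. Hba-a2 stood at 11.2, 8.47, 27.1 and 2597 CPM. Without these barcodes 11 genes were called in all, and without null replicate 1 edgeR called 203. Of 11 progenitor markers tested, 1 was higher in null, 1 lower and 9 not called, against 0.0921% higher and 0.132% lower over all genes. The higher was Mki67, a proliferation marker, at 172, 408, 67.6 and 97.3 CPM, with a log2 difference of 1.64 (SE 0.28, edgeR adjusted p = 5.7e-04), or 0.94 without null replicate 2 (adjusted p = 0.078). The lower, Ube2c, a mitotic ubiquitin-conjugating enzyme, stood at 120, 155, 162 and 399 CPM and was lower by 1.19, but turned to 0.71 after thinning. Its difference was −0.36 without WT replicate 2 (adjusted p = 0.97) and −0.53 without the globin barcodes (adjusted p = 0.45). Both belong to the genes that define cycling cells, whose share among Sst cells is given above.

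Of the other called genes, Zeb2, a zinc finger factor of interneuron specification and migration, stood at 637, 984, 440 and 283 CPM. It was higher in null by 1.05 (SE 0.24, edgeR adjusted p = 0.036). Meis2, a homeodomain factor of the LGE, stood at 149, 246, 94.7 and 58.1 CPM and was higher by 1.26 (SE 0.26, edgeR adjusted p = 0.016). Meis2 turned to −0.33 (SE 0.45) among male cells, of which null replicate 2 had 9 Sst cells. Of 6 LGE and striatal markers tested Meis2 was the only one called, against 0.224% of all genes. The median log2 difference of the 6 was 1.12 against 0.00 over all genes. Ebf1 and Isl1 differed by 1.24 (SE 0.57) and 0.99 (SE 0.56), with their highest levels in null replicate 2. Zbtb20 was higher by 0.97 (adjusted p = 0.042), at 564, 744, 304 and 306 CPM, and Snhg11, a long noncoding RNA, by 1.60 (adjusted p = 0.0044). Leaving out a library leaves 1 in its group, which is then assumed to vary like the other group. Without WT replicate 2 none of the 4 was called, with log2 differences of 0.76 for Zeb2 (adjusted p = 0.84), 0.92 for Meis2 (0.72), 0.98 for Zbtb20 (0.55) and 1.59 for Snhg11 (0.12). Without the globin barcodes alone all 4 were still called, with log2 differences of 0.97, 1.31, 0.92 and 1.54. With cycling cells left out Xist was the only gene called, so none of the 4 passed. With each cell thinned to 3000 UMIs, Xist was the only gene called higher in null. Zeb2, Meis2, Zbtb20 and Snhg11 were called in 6 of 15, 8 of 13, 5 of 15 and 9 of 13 alternatives. Without null replicate 2 the log2 difference was 0.74 for Zeb2 (adjusted p = 0.25), 0.91 for Meis2 (0.14) and 0.79 for Zbtb20 (0.14), none called. Zbtb20 was also not called without WT replicate 1, at 0.95 (adjusted p = 0.38). Both null libraries lay above both WT libraries for each of these 4 genes, as groups did without overlap for 43.0% of all genes tested.

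Cntn5 was called in both comparisons, as were Mki67, Ube2c, Meis2 and the 3 globin genes. It rose in Sst cells over Sst-zero neurons in every library, and among Sst cells it was lower in null, at 23.4 and 29.6 CPM against 76.7 and 58.1 CPM. The log2 difference was −1.46 (SE 0.33, edgeR adjusted p = 0.034), and −1.29 without WT replicate 1 (adjusted p = 0.21). Between null and WT, Cntn5 was called in 7 of 14 alternatives, and not with cycling cells left out or in male cells alone. The other called genes that were lower in null and are named here were Ost4, of protein glycosylation, and Uqcr11, of the respiratory chain, by 1.26 and 0.96. Ost4 was not called without null replicate 1 (log2 difference −0.99, adjusted p = 0.067), WT replicate 2 (−0.93, 0.79) or the globin barcodes (−1.05, 0.18). Uqcr11 was not called without WT replicate 1 (−0.98, 0.28), WT replicate 2 (−0.95, 0.47) or the globin barcodes (−0.86, 0.086). Male Sst cells numbered 43, 9, 41 and 44. Among male cells alone edgeR called 0 of 5631 genes, with 239 at an unadjusted p under 0.05.

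Genes that might be looked for first did not pass. St18 itself differed by −1.05 (SE 0.52, edgeR adjusted p = 0.47) between null and WT Sst cells, with null replicate 2 above WT replicate 1. Npy differed by −0.58 (SE 0.25, adjusted p = 0.39), Satb1 by −0.11 (SE 0.22) and Sox6 by 0.04 (SE 0.22). Lhx8 differed by −0.21 (SE 0.23) and Nkx2-1 by −0.04 (SE 0.23), all with an adjusted p of 0.80 or above. Of the 22 MGE transcription factors tested, only Zeb2 was called. Among the 21 migration, 21 maturation, 9 peptide processing and 8 GABA genes 0 were called. Over all genes 0.224% were called, so a count of 0 in lists this short says little about their genes. A p that misses the threshold does not show that null and WT Sst cells are alike in these genes.

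The difference between Sst cells and Sst-zero neurons was also compared between null and WT, as the interaction of class and genotype. Of 13218 genes tested, 22 had a higher Sst-cell difference in null (0.166%) and 8 a lower one (0.0605%), with 666 (5.04%) at an unadjusted p under 0.05. Pcdh8, a protocadherin, stood at 70.1, 74.8, 42.8 and 37.7 CPM in Sst cells and at 17.8, 20.2, 20.6 and 27.1 CPM in Sst-zero neurons. Its difference was larger in null by 1.28 on the log2 scale (edgeR adjusted p = 0.016). It was not called without null replicate 1 (1.15, adjusted p = 0.88), null replicate 2 (1.26, 0.57) or WT replicate 2 (0.98, 0.55).

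**Figure D5:**
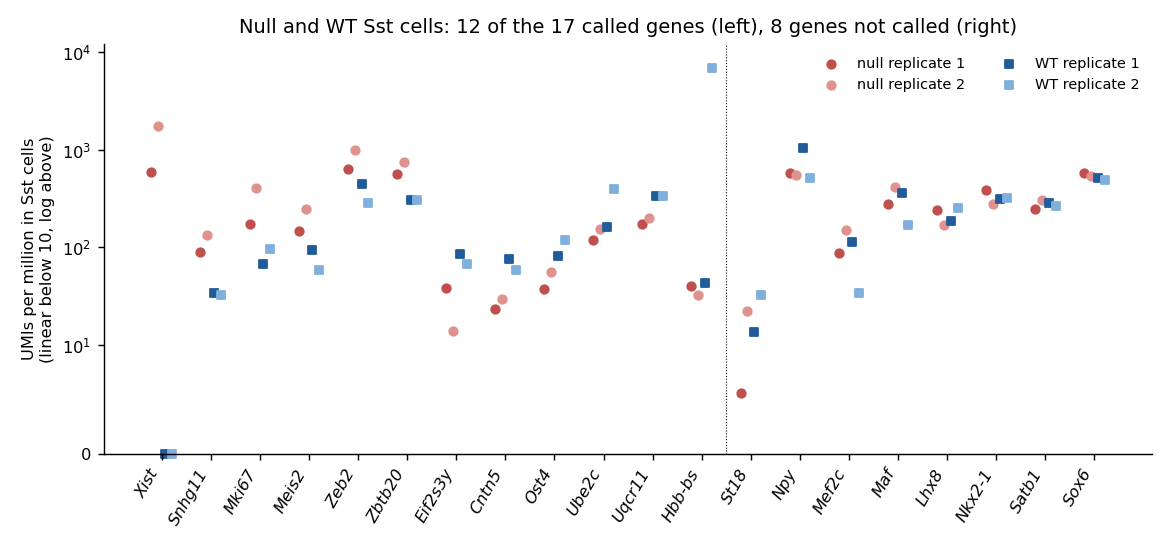
Level (CPM, log axis above 10 and linear below) in the Sst cells of each library for 12 of the 17 called genes (left) and 8 genes not called (right) in the comparison of null with WT, 1 point per library. Cntn5 is the lower in both null libraries (23.4 and 29.6 against 76.7 and 58.1 CPM), and Hbb-bs is set apart by WT replicate 2 (6818 CPM).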

How the data were processed

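Single-cell RNA of e14.5 MGE was measured in 2 null and 2 WT libraries. The authors deposited UMI counts per gene and barcode from Cell Ranger on GRCm38. The submitters' processing notes name version 5.0.1 and the file header version 4. Doublets were not removed in the main analysis. Scrublet set too high a threshold to be useful, so cells with the highest scores (0.8% per 1000 cells) were left out as an alternative. From the deposited counts, sums over the cells of a class in a library were tested with edgeR 4.0.16 in R 4.3.3 (quasi-likelihood F-test, TMM scaling, filterByExpr, Benjamini-Hochberg over all genes). The class comparison and the interaction had library as a block, and the 5 genes of the rule were not tested. The SE is the log2 difference divided by the square root of F. DESeq2 1.42.0 was an alternative. Scripts were tested on simulated counts with 100 genes changed 2-fold and 100 changed 4-fold. The comparison of null with WT recovered 29% of the 2-fold and 87% of the 4-fold changes, with 2 false calls. The class comparison recovered 62% and 90%, with 4 false calls. The spread of these counts was set beforehand and not taken from the libraries. Other steps used Python 3.11.15, numpy 2.4.6, scipy 1.17.1, pandas 2.3.3, scanpy 1.11.5 and matplotlib 3.10.9. Shares were compared by an exact permutation test over libraries.

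The members and lists were chosen with earlier results of these data known. Named genes were list members, the 10 called genes of largest fold each way (at least 20 CPM, one direction in all libraries), and 10 genes of the lineage; a few of these are not reported here. Matching took Sst-zero neurons in equal numbers from 4 bins, set by the quartiles of neuron gene level in the Sst cells of their library. Leaving out cycling cells or globin barcodes (at least 50 adult globin UMIs) was also chosen after seeing the data. Intervals are exact (Clopper-Pearson or Poisson, 95%), and these and the floor of 3 counts cover counting error only. GENCODE M21 matched 99.8% of gene IDs.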

Additional observations from a re-analysis of the deposited data

Results flagged for a closer look

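The difference between Sst cells and Sst-zero neurons differed between null and WT for 30 genes by the edgeR interaction test. Among them Snhg11 differed by 1.66 on the log2 scale (null minus WT). It was not called without null replicate 2 (1.27) or WT replicate 2 (1.36). Adarb2, which encodes an RNA-binding protein typical of CGE interneurons, differed by 1.42, at 185, 97.4, 85.7 and 62.8 CPM in Sst cells and 69.6, 75.5, 78.4 and 106 CPM in Sst-zero neurons. Without null replicate 1 the value for Adarb2 was 0.71 and was not called. Pcdh8 differed by 1.28.

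The histone genes Hist1h2bm, Hist1h2be, Hist1h3c, Hist1h2ae, Hist1h1b, Hist1h1a and Hist1h4h differed by 2.06, 1.79, 1.60, 1.34, 1.31, 1.26 and 1.23. Hist1h2bm and Hist1h2be were not called without null replicate 2 (1.58 and 1.21) or WT replicate 2 (2.42 and 1.45), nor Hist1h3c and Hist1h4h without null replicate 2 (1.31 and 0.82). Hist1h1a was not called without null replicate 1 (1.45), null replicate 2 (0.98) or WT replicate 1 (0.88). Their reads can be shared between near-identical copies. Hba-a2 differed by −3.27, with WT replicate 2 at 2597 CPM, and was not called without that library. With cycling cells left out, 7 genes were called in this comparison, and the part of cycling cells in the values above was not tested otherwise.

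Outside the rule, 29 neurons held at least 3 Sst UMIs and no Lhx6 UMI (11, 1, 11 and 6 per library), and 12 cells held at least 3 Sst UMIs and fewer than 2 of the neuron genes (4, 3, 4 and 1 per library). No cell of the progenitor class above, chosen without Lhx6 or neuron gene UMIs, reached 3 Sst UMIs.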

How the results depend on the processing

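The share difference (−0.234 points) turned to 0.181 with cells thinned to 3000 UMIs, 0.295 with Sst of at least 1 UMI, 0.0406 over all neurons and 0.0481 without cycling cells, and ranged from −0.668 to 0.201 with 1 library left out.

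The 2349 genes of the class comparison became 860 with thinned cells, 845 in male cells, 1263 without cycling cells, 362 with matched neurons and 821 in the WT libraries alone. Without the library as a replicate block 1292 were called. Leaving out 1 library gave 1523 to 2312, the lowest without null replicate 1. Nkx2-1 turned to 0.027 when thinned and 0.028 when matched, and Maf to −0.15 when thinned.

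The 17 genes of null against WT (7 higher, 10 lower) became 34 with DESeq2 (5 higher, 29 lower, 6 shared with the 17). They became 29 with no filter, 2 with thinned cells and 7 with Sst of at least 5 UMIs. Without the highest doublet scores 6 were called, 11 without globin barcodes and 1 without cycling cells. In male cells 0 of 5631 were called (239 at an unadjusted p under 0.05). Leaving out 1 library gave 16 (without WT replicate 2, 13 higher and 3 lower, 5 shared) to 203 (without null replicate 1, 72 higher and 131 lower, 16 shared). Hbb-bs turned to 0.21 without cycling cells, Meis2 to −0.33 in male cells and Ube2c to 0.71 when thinned. No paired analysis was possible because the labels give the libraries no replicate numbers, and those used here only follow the order of the samples.

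The 30 genes of the interaction became 0 with DESeq2 (120 at an unadjusted p under 0.05), 5 with thinned cells, 13 without the highest doublet scores, 10 in male cells and 7 without cycling cells. Leaving out 1 library gave 15 (null replicate 2) to 97 (WT replicate 1), with 16 without null replicate 1. Without cycling cells Hba-a2 turned to 0.996, Hist1h1b to −0.20 and Hist1h2be to −0.46. The cause of these changes was not tested. All comparisons within Sst cells are limited by the 59 to 118 cells per library and the 2 libraries per genotype.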
